A study of Mus musculus with 24 samples.

Results

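Brain endothelial genes are described here by 10 genes that are commonly used to mark brain endothelium: the receptors Flt1, Kdr and Tek, the junction genes Cldn5, Cdh5 and Pecam1, the transporters Slc2a1 and Abcb1a, and the surface and secreted markers Ly6c1 and Vwf. A probe was taken for one of these genes where it was no control spot and the RefSeq identifier printed for it on the array belonged to the gene. This gave 11 probes for 10 genes, of 56605 probes and 22911 genes in all. Ly6c1 had 2 probes and every other gene had 1. All 11 probes were well above background on 24 of 24 arrays, and none was saturated.

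Endothelial cells of brain capillaries form the blood-brain barrier: tight junctions seal the gaps between neighbouring cells, carriers bring glucose and other nutrients in, and efflux pumps return drugs and many lipid-soluble compounds to the blood. Signalling through VEGF receptors and through Tek, the receptor of the angiopoietins, controls the growth and quiescence of these vessels, and pericytes wrap the same capillaries from outside. Several of the genes are not exclusive to endothelium: Slc2a1 is also made by glia, Pecam1 and Ly6c1 by blood cells, and Vwf by platelet precursors.

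The study measured RNA of the hippocampus of male mice on 1-colour microarrays. APP/PS1 mice, whose full name is B6.Cg-Tg(APPswe,PSEN1dE9)85Dbo/J, carry a mutant human amyloid precursor protein and a mutant presenilin 1 and deposit amyloid in the brain. Some were given urolithin A, a compound that gut bacteria form from ellagitannins, by gavage between 2 and 7 months of age, and the others water. The daily dose is recorded as 200 mg/kg in the treatment protocol and as 20 mg/kg in the design text. At the end of treatment there were 4 APP-PS1_UA mice (genotype + APP + PSEN, urolithin A), 3 APP-PS1_CTR mice (+ APP + PSEN, water) and 4 WT_CTR mice (- APP - PSEN, water). After gavage had been stopped for 1 month there were 5 APP-PS1_UA-WASHOUT mice (+ APP + PSEN, urolithin A before), 3 APP-PS1_WASHOUT mice (+ APP + PSEN) and 5 WT_WASHOUT mice (- APP - PSEN). The age is labelled as 8 months for the first 3 groups and 9 months for the washout groups. All groups carry the same strain name, and no WT mice given urolithin A are among the samples. Each sample is described as 1 replicate of its group, and the p-values measure the spread between these replicates.

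The arrays lay on 3 slides of 8. The 75th percentile of the processed signal was between 1285 and 2292 intensity units per array, and 63.7% to 76.9% of the spots were well above background. Slide 1 held all WT_CTR and APP-PS1_CTR arrays and APP-PS1_UA 1. Slide 2 held APP-PS1_UA 2 to 4 and all WT_WASHOUT arrays. Slide 3 held all APP-PS1_WASHOUT and APP-PS1_UA-WASHOUT arrays. In the washout comparisons with WT_WASHOUT, genotype and slide therefore cannot be told apart, while APP-PS1_CTR with WT_CTR, and APP-PS1_UA-WASHOUT with APP-PS1_WASHOUT, were compared within 1 slide. On slide 1 the WT_CTR arrays lay in row 1 and the APP-PS1_CTR arrays in row 2, so group and row cannot be told apart on that slide. On slide 3 all 3 APP-PS1_WASHOUT arrays and APP-PS1_UA-WASHOUT 1 lay in row 1, where 73.8% to 76.9% of the spots were well above background, and the other 4 APP-PS1_UA-WASHOUT arrays in row 2, where 63.7% to 69.9% were. Within groups, arrays correlated with r between 0.976 and 0.990 over probes. The mean level of 12 hippocampal neuron genes was between 2.96 and 3.39 on every array, and that of 10 astrocyte genes between 2.58 and 3.11. The mean level of 16 choroid plexus genes ranged much more widely, between -3.58 and 2.81: it was between -3.47 and 2.81 in APP-PS1_UA, between 0.37 and 2.22 in APP-PS1_CTR and between -2.80 and 2.48 in WT_CTR mice.

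All levels are log2 processed signal relative to the 75th percentile of the array, so a level of 1 is a signal that is 1 doubling above that percentile. Levels of different probes are not set against each other. A difference passed where its Benjamini-Hochberg adjusted p from limma, over all 43973 probes tested, was under 0.05. In whole tissue, fewer endothelial cells and less RNA per endothelial cell cannot be told apart.

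A window before an annotated start is shown for Flt1 and Tek, the members whose difference passed in any comparison. That of Kdr is shown because Kdr is the sister receptor of Flt1. Each is 250 bases that end just before an annotated start, which need not be the outermost start of the gene. The bases run 5' to 3' on the gene's strand, from RefSeq on GRCm38.p6, whereas the annotation on the array refers to mm9. Capitals mark GGAA and its reverse complement TTCC, the core that ETS factors bind. ETS factors such as Erg act in endothelial promoters. The Tek window is chr4:94739039-94739288 on the plus strand, the Flt1 window chr5:147726012-147726261 on the minus strand and the Kdr window chr5:75978456-75978705 on the minus strand. The Flt1 and Kdr windows lie inside the annotated gene spans, chr5:147561604-147726438 and chr5:75932827-75979072. The Tek window reaches into the Tek gene, whose annotated span starts at chr4:94739086.
Tek: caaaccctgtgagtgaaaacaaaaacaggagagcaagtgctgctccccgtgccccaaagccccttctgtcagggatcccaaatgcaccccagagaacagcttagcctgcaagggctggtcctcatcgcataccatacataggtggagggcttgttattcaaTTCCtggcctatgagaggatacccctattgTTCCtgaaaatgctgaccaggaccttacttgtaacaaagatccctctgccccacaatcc
Flt1: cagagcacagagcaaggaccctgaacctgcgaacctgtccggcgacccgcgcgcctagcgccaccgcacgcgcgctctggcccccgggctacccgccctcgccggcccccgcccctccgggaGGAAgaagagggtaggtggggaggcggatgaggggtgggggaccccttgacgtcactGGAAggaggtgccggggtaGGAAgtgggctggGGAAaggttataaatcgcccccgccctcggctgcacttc
Kdr: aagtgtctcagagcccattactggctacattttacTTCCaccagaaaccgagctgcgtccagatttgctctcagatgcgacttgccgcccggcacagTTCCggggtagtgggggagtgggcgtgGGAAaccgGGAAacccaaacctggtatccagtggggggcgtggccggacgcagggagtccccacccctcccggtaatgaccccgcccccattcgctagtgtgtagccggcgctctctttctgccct

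The core was found 2 times in the Tek window, 4 times in the Flt1 window and 4 times in the Kdr window, counting both strands. It is common: 93.45% of 32851 windows of this length held it, with a mean of 2.911 matches. The Tek window also held 2 matches to ACAAT, the core of SOX factors, which 27.66% of windows hold. The hypoxia-response core ACGTG was in none of these 3 windows, and 16.57% of all windows hold it. Among the 7 members for which a window was at hand, Slc2a1 and Cldn5 had no GGAA or TTCC.

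Few differences between groups passed for the endothelial genes, and none of them at the end of treatment or between mice given urolithin A and their APP/PS1 controls. Tek and Flt1 were lower in APP-PS1_WASHOUT than in WT_WASHOUT hippocampi, and Flt1 was also lower in APP-PS1_UA-WASHOUT than in WT_WASHOUT hippocampi. In these comparisons every array of the APP/PS1 mice lay on a slide other than that of the WT_WASHOUT mice. The largest change that passed was that of Tek, to 0.701 times the WT_WASHOUT signal.

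Tek encodes the receptor of the angiopoietins, Tie2, which keeps mature vessels quiescent. Its level was -3.24, -3.31 and -3.09 in the APP-PS1_WASHOUT mice, against -2.59, -2.80, -2.71, -2.61 and -2.78 in the WT_WASHOUT mice. All 3 APP-PS1_WASHOUT arrays were below all 5 WT_WASHOUT arrays. The difference was -0.51 on the log2 scale (SE 0.12, 95% interval -0.75 to -0.27) with a limma adjusted p of 0.00234, and it passed under all 20 alternative settings and left-out arrays. In APP-PS1_UA-WASHOUT mice Tek was at -2.90, -2.72, -2.82, -3.19 and -3.03, which overlapped both other washout groups. Against WT_WASHOUT that was a difference of -0.23 (SE 0.10, limma adjusted p = 0.0821), which ranged between -0.54 and -0.16. It passed in 5 of 22 alternatives: quantile normalization, median scaling, slide as a random block, the authors' series table, and without APP-PS1_UA-WASHOUT 2. The random block cannot remove slide from this difference, since the groups lay on different slides. Against APP-PS1_WASHOUT the difference was 0.28 (95% interval 0.04 to 0.52, limma adjusted p = 0.536).

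At the end of treatment Tek was at -2.69, -2.81, -2.57 and -3.13 in APP-PS1_UA mice, at -2.64, -2.48 and -2.60 in APP-PS1_CTR mice and at -2.56, -2.39, -2.52 and -2.49 in WT_CTR mice. APP-PS1_UA and APP-PS1_CTR arrays overlapped, as did APP-PS1_CTR and WT_CTR arrays, while all 4 APP-PS1_UA arrays were below all 4 WT_CTR arrays. None of these differences passed: it was -0.22 (95% interval -0.47 to 0.03) for APP-PS1_UA against APP-PS1_CTR, -0.08 (95% interval -0.34 to 0.17) for APP-PS1_CTR against WT_CTR and -0.30 (SE 0.11) for APP-PS1_UA against WT_CTR, with limma adjusted p-values of 0.660, 0.903 and 0.823. WT_WASHOUT arrays were all below WT_CTR arrays for Tek, by 0.21 on average, without passing (limma adjusted p = 0.604). The mean of Tek was highest in WT_CTR (-2.49) and fell in the order APP-PS1_CTR (-2.58), WT_WASHOUT (-2.70), APP-PS1_UA (-2.80), APP-PS1_UA-WASHOUT (-2.93) and APP-PS1_WASHOUT (-3.21), and of the neighbouring pairs in this order that were tested none passed. That order also follows the slides in part: the means on slide 1 were the highest and those on slide 3 the lowest.

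Flt1 encodes VEGF receptor 1, which binds VEGF tightly and limits signalling through Kdr. Its level was 2.36, 2.43 and 2.40 in APP-PS1_WASHOUT mice and 2.22, 2.49, 2.60, 2.17 and 2.45 in APP-PS1_UA-WASHOUT mice, against 2.71, 2.88, 2.82, 2.75 and 2.76 in WT_WASHOUT mice. Every APP/PS1 washout array was below every WT_WASHOUT array. The difference was -0.38 (SE 0.13, limma adjusted p = 0.0380) for APP-PS1_WASHOUT and -0.39 (SE 0.12, limma adjusted p = 0.0112) for APP-PS1_UA-WASHOUT. For APP-PS1_WASHOUT the call ended when any single array other than WT_WASHOUT 1 was left out, with limma adjusted p-values of 0.0527 to 0.108. It also ended with the row of the array on its slide as a block (-0.32, limma adjusted p = 0.189). The APP-PS1_WASHOUT arrays all lay in the same row, so the row effect of that block was estimated without them. For APP-PS1_UA-WASHOUT the call held in 21 of 22 alternatives and was lost with the standardized values of the authors' series table (limma adjusted p = 0.0704).

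At the end of treatment Flt1 was at 2.58, 2.52, 2.90 and 2.58 in APP-PS1_UA mice, at 2.57, 2.64 and 2.56 in APP-PS1_CTR mice and at 2.12, 2.80, 2.81 and 2.51 in WT_CTR mice. The WT_CTR arrays spanned more than either APP/PS1 group. The differences were 0.05 (95% interval -0.24 to 0.34) for APP-PS1_UA against APP-PS1_CTR and 0.03 (95% interval -0.26 to 0.32) for APP-PS1_CTR against WT_CTR, neither of which passed by limma.

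Kdr, VEGF receptor 2 and the main signalling receptor for VEGF-A, gave no difference that passed. It averaged -0.22 ± 0.28 in APP-PS1_UA-WASHOUT (SD, n = 5), -0.21 ± 0.13 in APP-PS1_WASHOUT (n = 3) and -0.24 ± 0.16 in WT_WASHOUT mice (n = 5). In the groups without washout it averaged -0.44 ± 0.36 in APP-PS1_UA (SD, n = 4), -0.32 ± 0.22 in APP-PS1_CTR (n = 3) and -0.41 ± 0.16 in WT_CTR mice (n = 4). APP-PS1_UA 4 was the lowest of all 24, at -0.95, and APP-PS1_UA-WASHOUT 3 the highest, at 0.15. The difference between APP-PS1_WASHOUT and WT_WASHOUT, 0.04, had a 95% interval of -0.32 to 0.39.

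**Figure D1:**
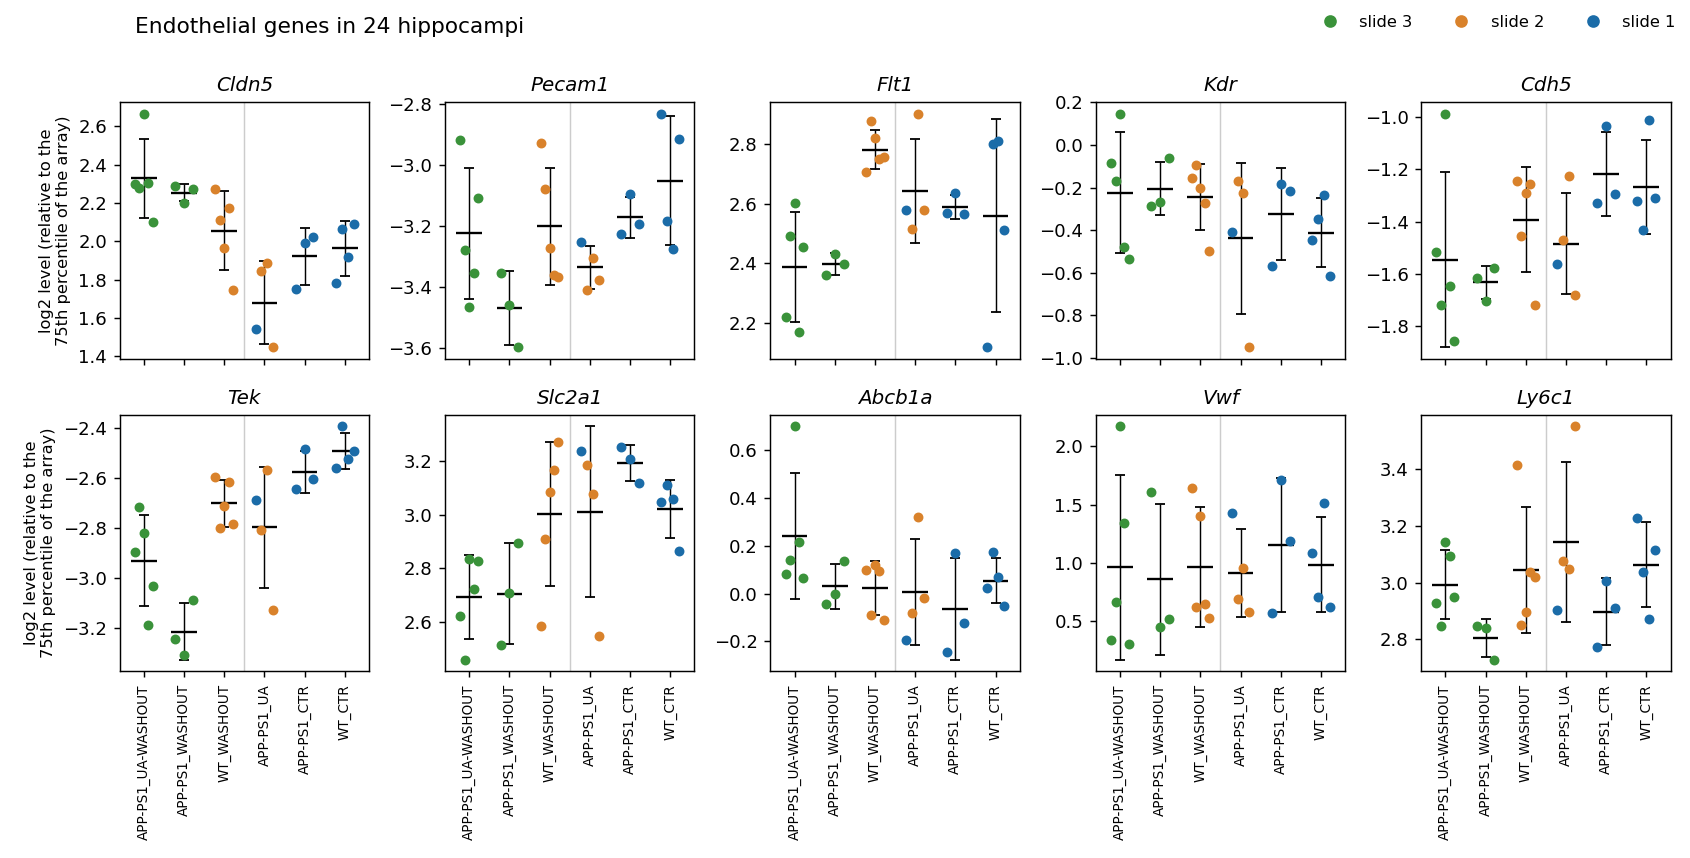
Level of each endothelial gene on 24 arrays (y axis, log2 processed signal relative to the 75th percentile of the array) by group (x axis); points are arrays coloured by slide, the bar is the group mean and the whiskers 1 SD. Tek and Flt1 are lower on all 3 APP-PS1_WASHOUT arrays than on all 5 WT_WASHOUT arrays, Vwf spreads between 0.30 and 2.17, and each panel has its own y axis.

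The junction genes did not pass in any comparison. Cldn5, the main claudin of the barrier's tight junctions, was at 2.30, 2.28, 2.66, 2.30 and 2.10 in APP-PS1_UA-WASHOUT mice, at 2.29, 2.20 and 2.27 in APP-PS1_WASHOUT mice and at 2.27, 2.11, 1.97, 2.17 and 1.75 in WT_WASHOUT mice. The APP/PS1 washout arrays lay in the upper part of the range of the WT_WASHOUT arrays or above it. The differences from WT_WASHOUT were 0.27 (95% interval 0.03 to 0.52) for APP-PS1_UA-WASHOUT and 0.20 (95% interval -0.08 to 0.48) for APP-PS1_WASHOUT, with limma adjusted p-values of 0.0762 and 0.309. The first of these passed in 5 of 22 alternatives, among them quantile normalization, while scaling by the array median turned its sign to -0.04 without passing.

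In the groups without washout Cldn5 was at 1.54, 1.84, 1.89 and 1.45 in APP-PS1_UA mice, against 1.75, 1.99 and 2.02 in APP-PS1_CTR mice, and it was at 1.78, 2.07, 1.92 and 2.09 in WT_CTR mice. APP-PS1_UA overlapped both other groups. The difference between APP-PS1_UA and APP-PS1_CTR was -0.24 (95% interval -0.54 to 0.05, limma adjusted p = 0.674), and on slide 1 alone, with APP-PS1_UA 1 as the single treated array, it was -0.38 (limma adjusted p = 0.932). The group means of Cldn5 differed more than those of most members, with 0.65 between the lowest, APP-PS1_UA, and the highest, APP-PS1_UA-WASHOUT. These groups differ in slide, age and washout as well, and this span was not tested.

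Cdh5, VE-cadherin of the adherens junctions, averaged -1.55 ± 0.34 in APP-PS1_UA-WASHOUT (SD, n = 5), -1.63 ± 0.06 in APP-PS1_WASHOUT (n = 3) and -1.39 ± 0.20 in WT_WASHOUT mice (n = 5). APP-PS1_UA-WASHOUT 3, at -0.99, stood above the other 4 arrays of its group, which lay between -1.86 and -1.52. In mice without washout Cdh5 averaged -1.48 ± 0.19 in APP-PS1_UA (SD, n = 4), -1.22 ± 0.16 in APP-PS1_CTR (n = 3) and -1.27 ± 0.18 in WT_CTR mice (n = 4), and the difference of -0.27 between APP-PS1_UA and APP-PS1_CTR had a 95% interval of -0.62 to 0.09.

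Pecam1, the adhesion molecule CD31, was at -3.36, -3.46 and -3.60 in APP-PS1_WASHOUT mice, against -2.93, -3.08, -3.27, -3.36 and -3.37 in WT_WASHOUT mice. The groups overlapped slightly, and the difference of -0.27 did not pass (SE 0.13, limma adjusted p = 0.133). It passed with quantile normalization, median scaling, the array row as a block and the authors' series table. The APP-PS1_WASHOUT arrays all lay in the same row, so the row effect of that block was estimated without them. For Pecam1 all 4 APP-PS1_UA arrays, between -3.41 and -3.25, were below the 3 APP-PS1_CTR arrays, between -3.23 and -3.10, by 0.16 on average, which did not pass either (95% interval -0.44 to 0.12).

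The transporters did not pass in any comparison. Slc2a1, the glucose carrier GLUT1, was at 2.62, 2.46, 2.83, 2.72 and 2.83 in APP-PS1_UA-WASHOUT mice, at 2.51, 2.71 and 2.89 in APP-PS1_WASHOUT mice and at 2.58, 2.91, 3.08, 3.17 and 3.27 in WT_WASHOUT mice. WT_WASHOUT 1 was low for its group and fell inside the APP/PS1 range. The differences from WT_WASHOUT were -0.31 (SE 0.13, limma adjusted p = 0.0800) for APP-PS1_UA-WASHOUT and -0.30 (SE 0.16, limma adjusted p = 0.174) for APP-PS1_WASHOUT. Both passed when WT_WASHOUT 1 was left out and under median scaling, and the first also with array weights and with slide as a random block. That block cannot remove slide here, since the groups lay on different slides.

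At the end of treatment Slc2a1 was at 3.25, 3.21 and 3.12 in APP-PS1_CTR mice, against 3.05, 3.11, 3.06 and 2.86 in WT_CTR mice. All 3 APP-PS1_CTR arrays were above all WT_CTR arrays, by 0.17 on average, without passing (95% interval -0.17 to 0.51). With the array row as a block the difference was -0.13, also without passing. Each of these groups lay in a single row, so that block took its row effect from arrays of other groups. The value therefore cannot separate row from genotype here. The APP-PS1_UA mice ranged between 2.55 and 3.24 and overlapped both groups. Abcb1a, the efflux pump P-glycoprotein, averaged 0.24 ± 0.26 in APP-PS1_UA-WASHOUT (SD, n = 5), 0.03 ± 0.09 in APP-PS1_WASHOUT (n = 3) and 0.02 ± 0.11 in WT_WASHOUT mice (n = 5), with 0.70 on APP-PS1_UA-WASHOUT 3 and 0.07 to 0.22 on the other 4 arrays of that group. Its differences at the end of treatment were 0.07 for APP-PS1_UA against APP-PS1_CTR (95% interval -0.23 to 0.37) and -0.12 for APP-PS1_CTR against WT_CTR (95% interval -0.42 to 0.18).

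Vwf, the clotting factor stored in endothelial granules and richer in veins and large vessels than in capillaries, varied between mice of a group more than any other member. It was at 0.34, 0.66, 2.17, 1.34 and 0.30 in APP-PS1_UA-WASHOUT mice, at 1.61, 0.45 and 0.52 in APP-PS1_WASHOUT mice and at 1.64, 0.62, 1.40, 0.65 and 0.52 in WT_WASHOUT mice. In the groups without washout it was at 1.43, 0.69, 0.96 and 0.58 in APP-PS1_UA mice, at 0.57, 1.72 and 1.19 in APP-PS1_CTR mice and at 1.09, 0.71, 1.52 and 0.62 in WT_CTR mice. High and low arrays occurred in every group. The within-group SD was 0.58, above that of 86.2% of the probes tested, whose median was 0.26, whereas the main probes of the other 9 members had within-group SDs of 0.15 to 0.24. With that spread, the 95% interval of the Vwf difference between APP-PS1_WASHOUT and WT_WASHOUT was -0.95 to 0.73.

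Ly6c1, a surface protein of brain endothelium, is given with the caveat that its close paralog Ly6c2 may contribute signal. Its brighter probe was at 2.93, 2.85, 3.14, 3.09 and 2.95 in APP-PS1_UA-WASHOUT mice, at 2.85, 2.84 and 2.73 in APP-PS1_WASHOUT mice and at 3.41, 2.85, 2.90, 3.04 and 3.02 in WT_WASHOUT mice. APP-PS1_WASHOUT arrays were below all arrays of both other washout groups, by margins smaller than the rounding in places. The differences were, for APP-PS1_WASHOUT against WT_WASHOUT, -0.24 (limma adjusted p = 0.214) and, for APP-PS1_UA-WASHOUT against APP-PS1_WASHOUT, 0.19 (limma adjusted p = 0.790). The dimmer probe gave -0.04 and 0.13 for the same comparisons, with overlapping groups.

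Set out by comparison, the counts were as follows. Transgene at the end of treatment, APP-PS1_CTR against WT_CTR, gave 0 of 10 members by limma, beside 0.152% of all probes, 0.146% higher and 0.00682% lower. At an unadjusted p under 0.05 it gave 0 members, beside 6.81% of all probes. 1 member, Slc2a1, had groups that did not overlap, against 9.16% of all probes. The median of the member changes was -0.01 and that of all probes -0.02. Apart from Vwf, the 95% intervals of the member changes lay within -0.46 to 0.51. The 16 choroid plexus genes were all above 0 in this comparison, with a median change of 1.90, and the 11 blood cell genes all below 0, with a median of -0.64. None of these passed, and their part in the member values was not tested. In the same comparison Cst7, Itgax and Trem2, genes of microglia around amyloid, rose by 5.92, 2.99 and 1.09 (limma adjusted p = 1.4e-08, 5.88e-05 and 0.00798).

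Urolithin A at the end of treatment, APP-PS1_UA against APP-PS1_CTR, gave 0 of 10 members by limma, with 0% of all probes passing. At an unadjusted p under 0.05 it gave 0 members, beside 3492 probes, or 7.94% of all. Pecam1 was the 1 member with groups that did not overlap, against 11.6% of all probes. The member changes had a median of -0.17, with 7 of 10 below 0, and that of all probes was -0.01. The 16 choroid plexus genes were all below 0 here, with a median of -2.52, and 12 of 16 pericyte genes were below 0, none of them passing. 3 of 4 APP-PS1_UA arrays lay on slide 2 and all APP-PS1_CTR arrays on slide 1. With slide as a block, Cldn5 was at -0.38, Cdh5 at -0.34, Tek at -0.11 and Ly6c1 at 0.01, all short of the threshold (limma adjusted p = 1). These values equal those on slide 1 alone, so the estimate rests on the single array APP-PS1_UA 1, and the sign turned for Slc2a1 (0.04), Abcb1a (-0.13), Vwf (0.27) and Flt1 (-0.01). Apart from Vwf, the 95% intervals without the block lay within -0.62 to 0.54.

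APP-PS1_UA against WT_CTR gave 0 of 10 members by limma, with 0.0432% of all probes passing, 0.0364% higher and 0.00682% lower. Cldn5 (-0.28), Pecam1 (-0.28) and Tek (-0.30) had an unadjusted p under 0.05 there, as did 5.81% of all probes. Tek was the 1 member whose groups did not overlap, against 2.54% of all probes.

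Transgene after washout, APP-PS1_WASHOUT against WT_WASHOUT, gave 2 of 10 members, both lower, with 25.8% of all probes passing, 18.6% higher and 7.2% lower. The groups of 3 members did not overlap, against 29.5% of all probes. The share of members that passed was near that background, so the count says nothing particular to endothelium. The member changes had a median of -0.24, with 7 of 10 below 0, and the median over all probes was 0.07. This split depends on the scaling: the 11326 probes that passed were 8158 higher and 3168 lower as reported, 5027 higher and 6331 lower after quantile normalization, and 5653 higher and 9632 lower after scaling by the array median, which moved the median of all probes to -0.15. Under median scaling 6 members passed as lower.

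APP-PS1_UA-WASHOUT against WT_WASHOUT gave 1 of 10 members, lower, with 35% of all probes passing, 22% higher and 13% lower, and non-overlapping groups for 1 member against 23.6% of all probes. The member median was -0.04 and that of all probes 0.03. Quantile normalization gave 6322 probes higher and 11491 lower and median scaling 6583 higher and 18048 lower, against 9667 higher and 5721 lower as reported. Median scaling moved the median of all probes to -0.28.

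Urolithin A after washout, APP-PS1_UA-WASHOUT against APP-PS1_WASHOUT, was compared within slide 3 and gave 0 of 10 members by limma, with 0.0591% of all probes passing, 0.0205% higher and 0.0387% lower. Of the probes that passed 9 were higher and 17 lower as reported, 34 higher and 146 lower after quantile normalization, and 9 higher and 33 lower after median scaling. Tek was the 1 member with an unadjusted p under 0.05 (0.28 higher, unadjusted p = 0.0229 by limma), beside 7.95% of all probes. Ly6c1 was the 1 member with groups that did not overlap, against 5.65% of all probes. Group and array row largely coincided on this slide. The row block took its row effect from the groups of APP-PS1_UA 1, WT_WASHOUT 1 and APP-PS1_UA-WASHOUT 1. Each of these was the only array of its group in its row, and the first and second lay on other slides. The block therefore separates row from group poorly here. With the row as a block none of the members passed by limma, the changes were 0.41 for Pecam1 (adjusted p = 0.315), 0.37 for Ly6c1 (0.398), 0.19 for Cldn5 (0.713), -0.26 for Slc2a1 (0.603) and 0.29 for Tek (0.484), and the sign turned for Kdr (0.05) and Vwf (-0.06). The member median was 0.10, with 7 of 10 above 0, that of all probes -0.02, and apart from Vwf the 95% intervals lay within -0.37 to 0.52. WT_WASHOUT and WT_CTR also lay on different slides and differed by a month of age. Their comparison gave 0 of 10 members by limma, beside 0.0114% of all probes, 0.0091% higher and 0.00227% lower. At an unadjusted p under 0.05 it gave 0 members, beside 8.56% of all probes. Tek was the 1 member whose groups did not overlap, against 1.86% of all probes.

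Whether the transgene difference itself differed between washout and the end of treatment was tested as an interaction. It passed for 0 of 10 members by limma and for 13.1% of all probes, 10.7% higher and 2.34% lower. The probes that passed were 4713 higher and 1031 lower as reported, 2475 higher and 1947 lower after quantile normalization, and 3355 higher and 4582 lower after median scaling. Flt1 (-0.41), Tek (-0.43) and Slc2a1 (-0.47) had an unadjusted p under 0.05, as did 26.7% of all probes, with limma adjusted p-values of 0.172, 0.0984 and 0.186. Tek passed this test in 5 alternatives, listed with the dependence on processing. The urolithin A difference, washout minus end of treatment, passed for 0 of 10 members by limma and for 0.00227% of all probes. Pecam1 (0.41) and Tek (0.50) had an unadjusted p under 0.05 there, as did 10.7% of all probes. For Pecam1 and Tek the limma adjusted p-values were 0.433 and 0.285. The changes with urolithin A were -0.22 at the end of treatment and 0.28 after washout for Tek, and -0.16 and 0.25 for Pecam1.

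**Figure D2:**
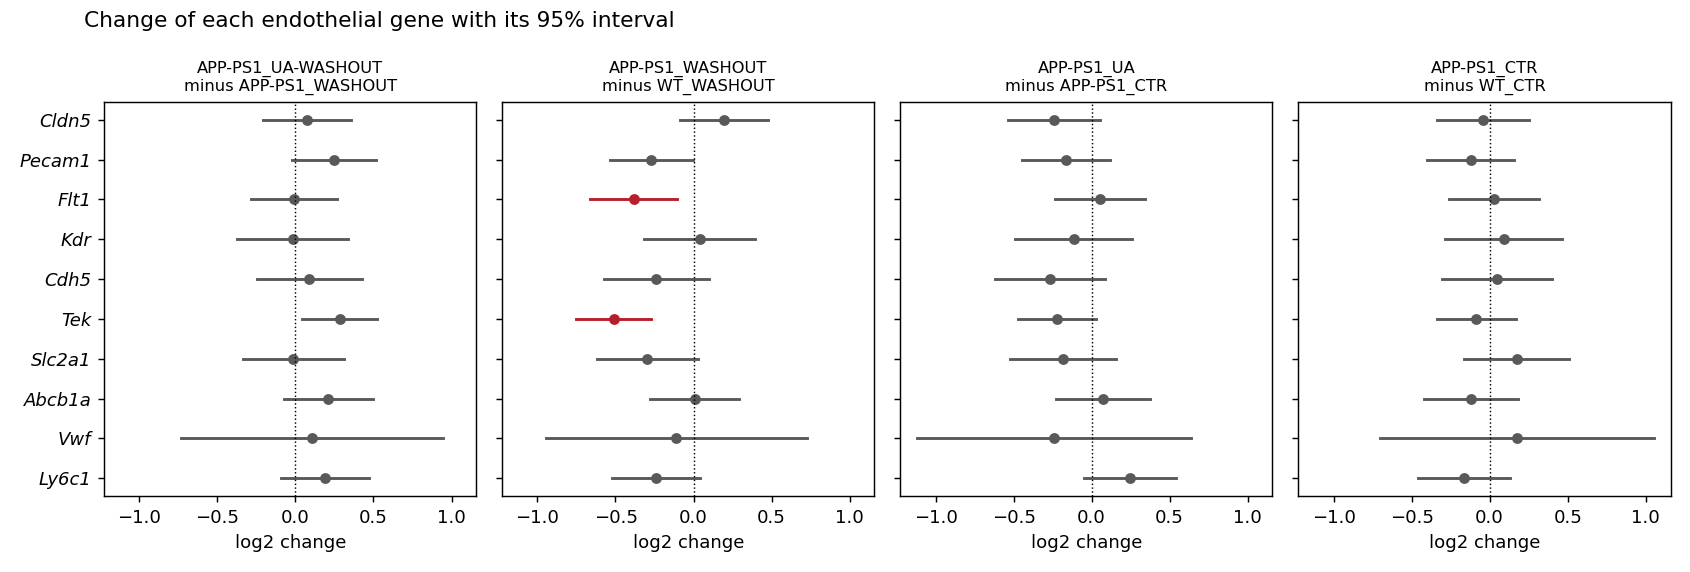
Change of each endothelial gene (x axis, log2, with 95% interval as a line) in 4 comparisons, left to right by panel; red marks a limma adjusted p under 0.05. Tek and Flt1 are red for APP-PS1_WASHOUT minus WT_WASHOUT, at -0.51 and -0.38, no gene is red in the other 3 panels, and the interval of Vwf is the widest throughout.

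No gene of the wider vascular lists passed at the end of treatment. Of all probes, 0.152% passed for APP-PS1_CTR against WT_CTR and 0% for APP-PS1_UA against APP-PS1_CTR. Beside these shares, the lack of calls says nothing particular to vascular genes. In APP-PS1_CTR against WT_CTR and in APP-PS1_UA against APP-PS1_CTR, 0 of 36 other endothelial and barrier genes passed by limma, 0 of 18 ligands and co-receptors of the VEGF and angiopoietin pathways, 0 of 16 genes of the Wnt signalling that maintains the barrier, 0 of 11 measured genes of endothelial activation and leakage and 0 of 16 pericyte and smooth muscle genes. At an unadjusted p under 0.05 these lists held 1, 3, 1, 2 and 2 genes for the transgene and 2, 2, 1, 1 and 2 for urolithin A. These were shares of 2.78% to 18.2% for the transgene, beside 6.81% of all probes. For urolithin A they were 5.56% to 12.5%, beside 7.94% of all probes. Within 3 of these lists the same gene had the largest absolute change in both comparisons. Vegfd, a lymphatic growth factor, changed by -1.38 for APP-PS1_CTR against WT_CTR and by 0.92 for APP-PS1_UA against APP-PS1_CTR. Ackr1, a chemokine-binding protein of venules, changed by -2.52 and 2.48, and Wnt7a, the barrier-inducing Wnt ligand, by -0.52 and 0.57. None of these passed (limma adjusted p of 0.589 or more). In the same order, changes of pericyte and smooth muscle genes lay between -0.41 and 0.45 and between -0.70 and 0.19. Those of the other endothelial genes lay between -0.38 and 0.44 and between -0.40 and 0.43. Ackr1 had a second probe that gave -0.28 and 0.09. Both comparisons share the APP-PS1_CTR arrays, so a high or low value there enters them with opposite signs.

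After washout, APP/PS1 mice differed from WT_WASHOUT mice in single genes of these lists, again across slides. For APP-PS1_WASHOUT, 1 of 36 other endothelial genes passed, beside 25.8% of all probes, and this was Cav1, which forms caveolae (1.24 higher, SE 0.41, limma adjusted p = 0.0302; its other probe gave 0.50). Of 18 pathway genes Aplnr, the apelin receptor, rose and Nrp2, a VEGF co-receptor, fell. Aplnr was not well above background on any WT_WASHOUT array, so its rise is at least 3.58-fold (limma adjusted p = 3.52e-06). It was well above background on 3 of 3 APP-PS1_WASHOUT arrays, which alone met the filter of at least 3 arrays. The probe could thus be tested through the group where it was high, and its p-value is no independent support for the rise. Nrp2 averaged 2.35 in APP-PS1_WASHOUT and 3.22 in WT_WASHOUT mice, a change of -0.87 by its brightest probe, but its 3 probes disagreed, with changes of -0.87 to 0.66.

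Of the ligands and partners of the 3 receptors, 6 were picked for that link after the values had been seen. None of the 6 passed by its brightest probe in APP-PS1_WASHOUT against WT_WASHOUT. Nrp2, which passed as given above, is also a co-receptor and was not among them. Their not passing therefore says nothing about these pathways as a whole. The changes were -0.12 for Vegfa (SE 0.13), -0.09 for Angpt1 (SE 0.20), -0.12 for Angpt2 (SE 0.18), 0.22 for the co-receptor Nrp1 (SE 0.10), -0.15 for Tie1, the partner of Tek (SE 0.19), and -0.27 for Ptprb, the phosphatase that acts on Tek (SE 0.15). Their limma adjusted p-values lay between 0.131 and 0.790. The values are those of the brightest probes: the 4 Vegfa probes ranged between -0.48 and 3.65 and the 3 Nrp1 probes between 0.02 and 0.91. Whether the other probes passed is not given here.

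Of 16 Wnt pathway genes, Lrp5 (0.81), Lef1 (0.80) and Apcdd1 (0.44) rose and Tspan12 (-0.46) fell in APP-PS1_WASHOUT, and in APP-PS1_UA-WASHOUT these 4 passed in the same directions and Ndp (-0.32) and Ctnnb1 (-0.25) fell as well. The 4 of 16 stood beside 25.8% of all probes and the 6 of 16 beside 35%, so both counts were near the background. Lrp5 and Tspan12 are co-receptors for the ligand Ndp, Lef1 is a transcription factor of the pathway and Apcdd1 one of its targets. Among the activation genes, Selp, the selectin that catches leukocytes, rose in both, by 2.37 in APP-PS1_UA-WASHOUT and by 2.00 in APP-PS1_WASHOUT. Selp was well above background on 3 of 5 WT_WASHOUT arrays.

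Among genes of mural cells, the pericytes and smooth muscle around vessels, about as many passed as among all probes. In APP-PS1_UA-WASHOUT against WT_WASHOUT 4 of 16 rose, beside 22% of all probes, and 1, Acta2, fell, beside 13%. In APP-PS1_WASHOUT 3 of 16 rose, beside 18.6% of all probes. Notch3, a receptor of smooth muscle and pericytes, averaged 2.66 in APP-PS1_UA-WASHOUT, 1.63 in APP-PS1_WASHOUT and 0.31 in WT_WASHOUT mice, and Tagln, a protein of smooth muscle, 2.86, 1.64 and 0.43. Both rose against WT_WASHOUT in both APP/PS1 groups, by 2.35 and 2.43 in APP-PS1_UA-WASHOUT and by 1.32 and 1.21 in APP-PS1_WASHOUT. Between APP-PS1_UA-WASHOUT and APP-PS1_WASHOUT, on the same slide, the changes were 1.03 for Notch3 (SE 0.24) and 1.22 for Tagln (SE 0.30), which did not pass (limma adjusted p = 0.140 and 0.169). Des rose too, by 1.33 and 1.01 against WT_WASHOUT, where it was well above background on 4 of 5 arrays. Acta2 fell by 0.67 by its brightest probe, while its 3 probes ranged between -0.67 and 0.68.

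In APP-PS1_UA-WASHOUT against WT_WASHOUT 3 of 36 other endothelial genes rose, beside 22% of all probes, and 2 fell, beside 13%. Cav1 (1.70), Clec14a (0.81) and Sox18 (0.45) rose and Tjp1 (-0.37) and Tfrc (-0.32) fell. Cav1 and Clec14a were well above background on 4 of 5 APP-PS1_UA-WASHOUT arrays. Of the 18 pathway genes Aplnr, Vegfb (0.38) and Notch4 (0.26) rose and Nrp2 (-0.69) fell. Aplnr was at least 3.90-fold higher, being well above background on 4 of 5 APP-PS1_UA-WASHOUT arrays and on no WT_WASHOUT array. Here too the arrays where it was high were enough for it to pass the filter.

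Markers of other cell types were read in APP-PS1_WASHOUT against WT_WASHOUT, where 25.8% of all probes passed. Of 12 microglia and macrophage genes 7 rose, with mean levels of the list between -0.21 and 0.13 in APP-PS1_WASHOUT and between -1.46 and -0.92 in WT_WASHOUT mice. Of 10 astrocyte genes Gfap (0.88) and Aldoc (0.77) rose, and of 12 neuron genes Snap25 (0.75, with -0.26 by its other probe) and Syt1 (0.39) rose and Gad1 (-0.50) fell, shares near that of all probes. None of the 16 choroid plexus and 12 meningeal and fibroblast genes passed, and of 11 measured blood cell genes 1 rose, Ngp (1.43), which was well above background on 3 of 5 WT_WASHOUT arrays. The mean level of the pericyte list was between -0.46 and -0.42 in APP-PS1_WASHOUT and between -0.96 and -0.39 in WT_WASHOUT mice. The part of any of these cell types in the Tek and Flt1 differences was not tested.

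A subset of the genes varied together between mice of a group. Over 24 arrays, with each value taken as its deviation from the group mean, 45 pairs of members were correlated; 32 coefficients were above 0 and their median was 0.22. The Pearson coefficient had a Benjamini-Hochberg adjusted permutation p under 0.05 in 7 pairs, all positive, but in none of the 45 did Spearman's rho pass as well. Permutations were two-sided and numbered 100000.

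Cdh5 was in 4 of the 7 pairs. It correlated with Abcb1a at r = 0.78 (rho = 0.62, adjusted permutation p = 0.0218 and 0.0651), with Cldn5 at r = 0.73 (rho = 0.65, adjusted permutation p = 0.0218 and 0.0651), with Kdr at r = 0.71 (rho = 0.71, adjusted permutation p = 0.0218 and 0.0522) and with Vwf at r = 0.68 (rho = 0.56, adjusted permutation p = 0.0239 and 0.0651). The other 3 pairs were Cldn5 with Kdr (r = 0.70, rho = 0.65), Kdr with Tek (r = 0.70, rho = 0.60) and Cldn5 with Abcb1a (r = 0.64, rho = 0.53). Without the 2 arrays farthest from the median of 1 gene of the pair, the 7 coefficients were between 0.50 and 0.68. APP-PS1_UA-WASHOUT 3 was the highest array for Cldn5, Kdr, Cdh5, Abcb1a and Vwf and had the fewest spots well above background (63.7%). It stayed in for Kdr with Cdh5 and Kdr with Tek, where APP-PS1_UA 4 and APP-PS1_UA-WASHOUT 5 were left out. Several of them were weak on 1 slide: Cldn5 with Cdh5 was 0.07 on slide 1, 0.85 on slide 2 and 0.97 on slide 3, and Cldn5 with Kdr was 0.26, 0.82 and 0.80. Kdr with Cdh5 was 0.55, 0.69 and 0.83.

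The remaining members stood apart. Against the mean of the other 9, Cdh5 had r = 0.83, Abcb1a 0.77, Cldn5 0.76, Kdr 0.73, Tek 0.58 and Vwf 0.53, whereas Flt1 had 0.27, Slc2a1 -0.08, Ly6c1 -0.13 and Pecam1 -0.26. These are given as a description. The lowest of the 45 pairs was Slc2a1 with Ly6c1, at r = -0.58, which was -0.09 without APP-PS1_UA 4 and WT_WASHOUT 1, and -0.59, -0.80 and 0.32 within slides 1, 2 and 3.

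**Figure D3:**
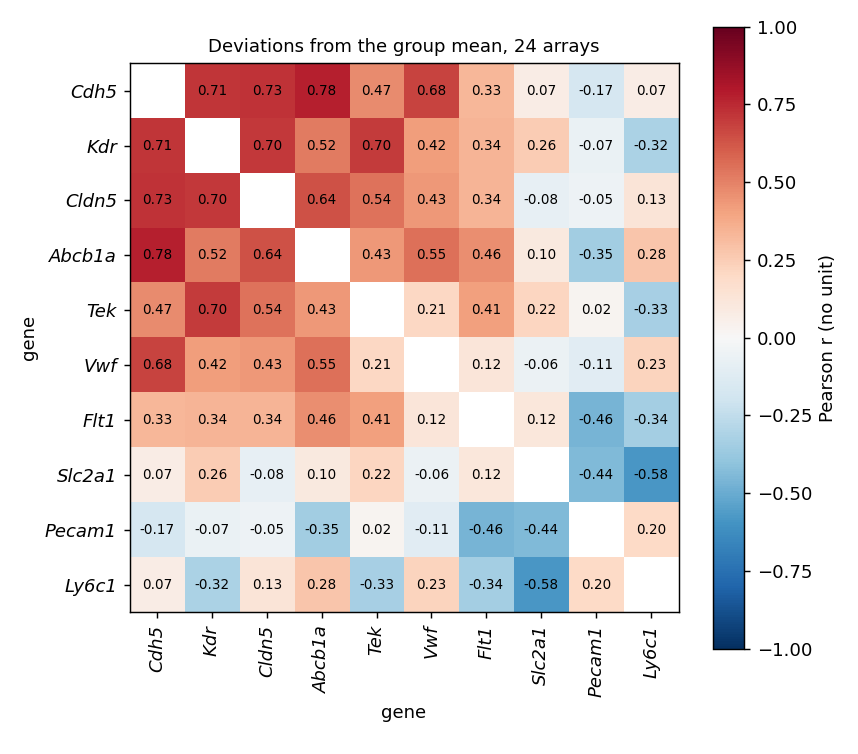
Pearson correlation between endothelial genes (both axes, 10 genes) of the deviations from the group mean over 24 arrays; the colour scale runs between -1 and 1. The block of Cdh5, Kdr, Cldn5 and Abcb1a at the upper left holds coefficients of 0.52 to 0.78, and Slc2a1, Pecam1 and Ly6c1 have values near or below 0 with most genes.

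The members were also set against 4 lists of neighbouring cell types, 40 relations in all, of which 9 had an adjusted permutation p under 0.05 by Pearson's r and 4 by both coefficients. Cdh5 followed the mean of 16 pericyte and smooth muscle genes most closely, with r = 0.90 and rho = 0.87 (adjusted permutation p = 0.0004 for both, from the smallest p that 100000 permutations can give, 1e-05). The coefficient was 0.88 without the 2 farthest arrays and 0.93, 0.83 and 0.98 on slides 1, 2 and 3. Cdh5 also followed 12 meningeal and fibroblast genes (r = 0.76, rho = 0.64, adjusted permutation p = 0.0054 and 0.0405). Abcb1a followed the pericyte list (r = 0.68, rho = 0.63, adjusted permutation p = 0.0135 and 0.0405).

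Vwf followed the meningeal list (r = 0.73, rho = 0.64, adjusted permutation p = 0.0135 and 0.0405), with r = 0.94 on slide 1, 0.35 on slide 2 and 0.74 on slide 3, and 0.67 without the 2 farthest arrays. The list ranged between -1.87 and 0.87 over the arrays: it was between -1.74 and 0.87 in APP-PS1_UA-WASHOUT, between -1.40 and -0.45 in APP-PS1_WASHOUT and between -1.56 and -0.80 in WT_WASHOUT mice. How much meningeal or large-vessel tissue each sample held was not tested. No member was related to the 16 choroid plexus or the 11 blood cell genes with an adjusted p under 0.05; the largest coefficient was that of Slc2a1 with choroid plexus genes (r = 0.56, rho = 0.50, adjusted permutation p = 0.0957 and 0.181).

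**Figure D4:**
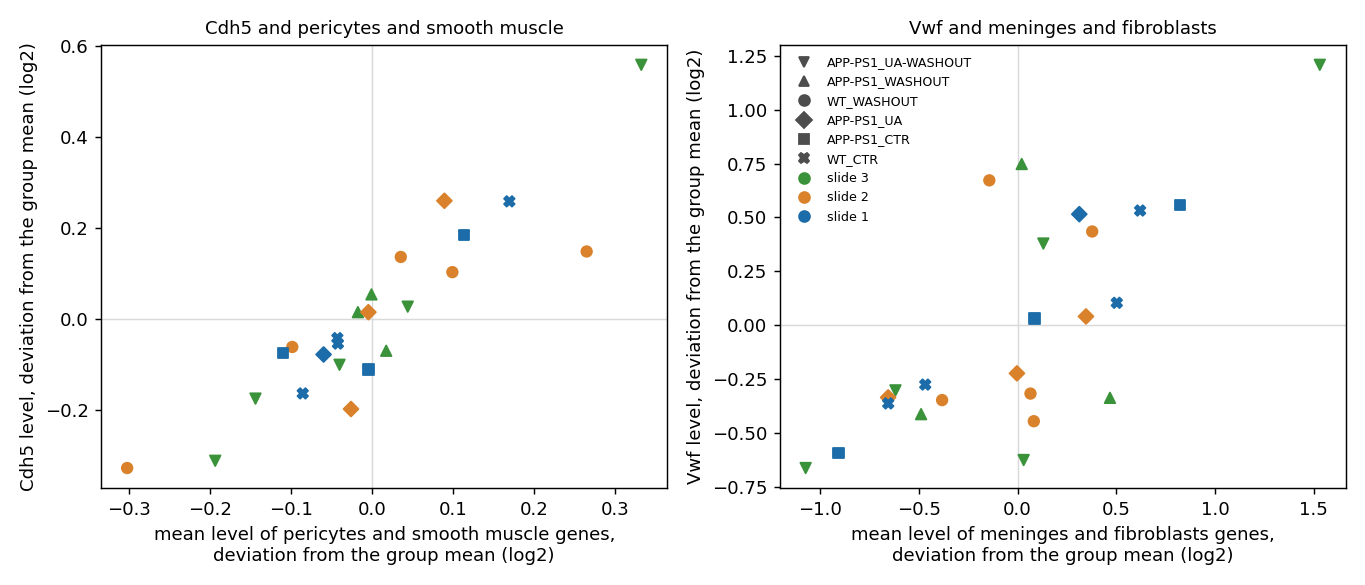
Left, Cdh5 against the mean of 16 pericyte and smooth muscle genes; right, Vwf against the mean of 12 meningeal and fibroblast genes; both axes are log2 deviations from the group mean, symbols are groups and colours slides. The points rise along a line at left (r = 0.90) and more loosely at right (r = 0.73), and APP-PS1_UA-WASHOUT 3 is at the upper right in both.

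The 8 genes outside the list whose deviations were most like the mean of the members over the 24 arrays were H2-Q1 (r = 0.88), Vtn (0.88), C1qtnf2 (0.88), Dapl1 (0.88), Prg4 (0.87), Tnfsfm13 (0.86), Akap12 (0.86) and Lrrc32 (0.85). These were the highest among 18566 genes and were not tested. The probes of H2-Q1 and Dapl1 were dim, with mean levels of -5.40 and -4.24. Vtn is a gene of brain pericytes and one of the 16 in that list. For single members, which were added after their values had been seen, Vwf was most like Tgm2 (r = 0.93), Cyp1b1 (0.91), Procr (0.90) and Slc6a13 (0.89), the last of which is a transporter of meningeal cells, and Ly6c1 was most like Ly6c2 (0.95) and Xdh (0.91). Cdh5 was most like Actc1 (0.93) and Vtn (0.92).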

How the data were processed

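RNA of 24 mouse hippocampi was hybridised to 1-colour Agilent arrays, 1 array a mouse. Per the file headers, the authors' deposited scanner files were written by Feature Extraction 12.0.3.1, whose processed signal is an intensity already corrected for background; its aligned annotation is mm9. The authors' deposited series table holds a score per probe: the log signal standardized over an array (within 0.005), with column medians of -0.17 to -0.06; its centring and scale are those of the array and its direction is that of the signal.

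Each log2 level was the log2 of the deposited processed signal minus the 75th percentile of its array. Spots of a probe were averaged, and control spots and 1125 flagged values among the kept probes were left out. A probe was kept if well above background on at least 3 arrays (43973 of 56605; 27280 with a gene symbol through RefSeq). One limma model (version 3.58.1, R 4.3.3) of 6 group means was fitted to all kept probes, with Benjamini-Hochberg adjustment over them. A gene is given by its brightest probe. Correlations used permutation tests (numpy 2.4.6). On simulated arrays of the comparison APP-PS1_CTR with WT_CTR (43973 probes), 11 of 50 changes of 0.5 log2 units and 31 of 50 changes of 1 were recovered, with 2 false calls. How precise a change is depends on how many arrays there are.

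The members, gene lists and rules were chosen with earlier results of these data known. The text names all 10 members, up to 4 genes of a list by smallest adjusted p and the 8 genes most like the members. Where no gene of a list passed, the rule was to name the 2 largest changes. The text departs from it, naming only the largest change of some lists and none of others. The other list genes that passed are named after their values were seen. Alternatives were other background correction, scaling, filters, blocks for slide, array row and replicate number, array weights, the series table and leaving out each array. The deposited scanner files hold no mean signal, so the background alternative used the median signal with an offset of 50. The result of 1 gene of the activation list is not reported here.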

Additional observations from a re-analysis of the deposited data

Results flagged for a closer look

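Within groups of 4 or 5 arrays, 1 array stood far from the others for 2 of 44 combinations of probe and group, against the 2.2 that chance gives, since chance sets apart about 1 in 20 groups. Flt1 was at 2.90 on APP-PS1_UA 3, where the other 3 APP-PS1_UA arrays lay between 2.52 and 2.58. Abcb1a was at 0.70 on APP-PS1_UA-WASHOUT 3, where the other 4 lay between 0.07 and 0.22.

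The transgene difference after washout differed from that at the end of treatment, by limma's interaction test, for 5 of 97 genes of the vascular lists, each across slides. That share, 5.15%, was below the 13.1% of all probes that passed the same test. The interaction was -0.83 for Nrp2 (SE 0.16, limma adjusted p = 0.00136), 3.67 for Aplnr (SE 0.49), 0.97 for Lrp5 (SE 0.22), 1.61 for Selp (SE 0.32) and 1.19 for Notch3 (SE 0.35). The transgene differences after washout and at the end of treatment were -0.87 and -0.04 for Nrp2, 0.81 and -0.15 for Lrp5, 2.00 and 0.40 for Selp, and 1.32 and 0.13 for Notch3. Aplnr was below background on most arrays, so its interaction is no measured fold. The APP/PS1 washout arrays, where it was high, were enough for it to pass the filter. The other probes of Nrp2 gave interactions of up to 0.58.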

How the results depend on the processing

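Of 205 repeats of the member counts under an alternative, 183 stayed within 1.5 times the count reported. For APP-PS1_WASHOUT against WT_WASHOUT (2 members), 6 passed under median scaling and 4 with the series table, and 1 to 3 when 1 array was left out: 1, Tek, without WT_WASHOUT 2, 3, 4 or 5 or any APP-PS1_WASHOUT array. For APP-PS1_UA-WASHOUT against WT_WASHOUT (1 member), quantile normalization, slide as a random block and the series table gave 4 each, median scaling 6, array weights 2, and leaving out 1 array 1 to 3 (3 without WT_WASHOUT 1; 2 without APP-PS1_UA-WASHOUT 2 or 5). For the transgene interaction (0 members), quantile normalization gave 1, median scaling 2, the fit of its 4 groups alone 1, array weights 2 and the authors' standardized values 1; Tek was among them each time. The other 6 counts were 0 in every alternative run. The cause was not tested, except that scaling moves all probes, by the shifts given above.

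Of 2050 refitted member changes, 36 passed that had not and 9 no longer did; 185 turned sign, 33 of them where the change reported was 0.1 or more, and none of these had passed in either fit. Slide could not be fitted as a fixed block where APP/PS1 washout groups are set against WT_WASHOUT or in the transgene interaction. Its random-block correlation was -0.06. In those comparisons the random block does not take out slide either, so passing under it is no sign that a difference holds apart from slide. Same-numbered replicates correlated at -0.25 to 0.34, not above 0.1 in every pair of any comparison, and the reported model did not pair them. These correlations do not settle whether same-numbered samples belong together. The replicate block gave 2, 1 and otherwise 0 members, as without it. Counts of all probes that passed ranged between 9 and 197 for APP-PS1_CTR against WT_CTR (67 reported), 0 and 10 for APP-PS1_UA against APP-PS1_CTR (0), 0 and 34 for APP-PS1_UA against WT_CTR (19), 6701 and 15285 for APP-PS1_WASHOUT against WT_WASHOUT (11326), 0 and 3270 for APP-PS1_UA-WASHOUT against APP-PS1_WASHOUT (26), 10565 and 25424 for APP-PS1_UA-WASHOUT against WT_WASHOUT (15388), 0 and 85 for WT_WASHOUT against WT_CTR (5), 755 and 9179 for the transgene interaction (5744) and 0 and 317 for the urolithin A interaction (1). With the replicate block, these counts were 41 for APP-PS1_CTR against WT_CTR, 13 for APP-PS1_UA-WASHOUT against APP-PS1_WASHOUT and 0 for WT_WASHOUT against WT_CTR.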
